A study of Mus musculus with 4 samples.

Results

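The 44 genes described here encode the DNA replication machinery and its S-phase regulators, from origin licensing to chromatin assembly behind the fork. They were taken by gene symbol from a deposited table of 18373 genes. All 44 were present and all 44 were among the 13628 genes with enough counts for a test. RNA-seq was performed on primary liver sinusoidal endothelial cells (LSECs), the fenestrated endothelial cells that line the liver sinusoids, isolated from 8-week-old Balb/c mice. The cells were cultured for 24 h and then transfected for 48 h, so that both groups were primary cells at culture day 3. The 2 NC libraries came from cells given a control siRNA, and the 2 si*Airn* libraries from cells given siRNA against *Airn*, an imprinted long noncoding RNA antisense to *Igf2r*. The labels of both si*Airn* libraries name si*Airn*1, whereas the methods describe 2 separate siRNAs, and the identity of the siRNA in each of them remains unknown. The labels call the libraries biological replicates without naming animals, so the p-values measure the spread between these libraries.

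Counts summed to between 17308382 and 18371959 per library. The target *Airn* was counted 7 times in NC replicate 1, 3 times in NC replicate 2, and 11 and 9 times in the si*Airn* pair, which is too few for a test and no decrease, so that every direction below follows the labels. The endothelial identity was visible in *Stab2* (428.9 to 474.7 CPM for NC, 350.1 to 409.6 for si*Airn*) and in *Cdh5* (2322 to 2625 against 1524 to 1794 CPM). CPM are counts scaled to a common library size with TMM factors. In bulk samples, fewer cells of a type and less RNA per cell cannot be told apart.

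Before a cell copies its DNA, the origin recognition complex, Cdc6 and Cdt1 load the MCM2-7 hexamer onto chromatin, a step called licensing. Cdc45 and the GINS complex then turn MCM2-7 into an active helicase, polymerases alpha, delta and epsilon synthesize DNA, the clamp loader RFC places the sliding clamp PCNA, and RPA covers single-stranded DNA. Many of these genes are transcribed at the G1/S transition by E2F factors. Most endothelial cells in the adult liver are out of the cell cycle.

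Most of the members that changed belong to the replicative helicase and its loading. All 6 MCM2-7 genes, the licensing genes *Cdc6* and *Orc1*, the cyclin E gene *Ccne2* and the ribonucleotide reductase gene *Rrm2* rose in si*Airn*, by 1.21-fold (*Mcm3*) to 2.82-fold (*Ccne2*), whereas the clamp loader gene *Rfc2* fell to 0.746 of its NC level. Thus 10 of the 44 members were higher (22.7%, against 8.27% of all genes tested) and 1 was lower (2.27%, against 8.56%) when the quasi-likelihood test of edgeR was adjusted over all genes at a threshold of 0.05. In either direction this was 11 of 44 (25.0%), against 16.8% of all genes tested. With the threshold of the study, a fold change over 1.4 with an unadjusted p under 0.05, 5 members passed, all higher (*Ccne2*, *Cdc6*, *Orc1*, *Mcm4* and *Mcm10*). This is 11.4%, near the 9.96% of all genes tested. Both si*Airn* libraries lay above both NC libraries in CPM for 21 members (47.7%, against 30.9% of all genes) and below them for 11 (25.0%, against 31.9%), and the groups overlapped for 12. The log2 fold change was above 0 for 28 members and below 0 for 16, and its median was 0.10 over the members and 0.00 over all genes tested.

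These calls rest on 2 libraries a group. Without NC replicate 1 or without NC replicate 2, edgeR's quasi-likelihood test called no member, with 12 and 14 members at an unadjusted p under 0.05, and over all genes 40 and 0 were called. In these fits the log2 fold changes of the 10 higher members ranged from 0.23 to 1.38 and from 0.28 to 1.62. That of *Rfc2* was -0.45 and -0.40. The groups did not overlap for any of these genes, so leaving out a library could hardly turn a sign. Without si*Airn* replicate 1, the log2 fold changes of the 10 higher members ranged from 0.29 to 1.29. Without si*Airn* replicate 2, they ranged from 0.22 to 1.67. Calls were also lost when an si*Airn* library was left out. *Mcm7* and *Rrm2* were no longer called in either of these fits. *Mcm2*, *Mcm3*, *Mcm5* and *Orc1* were no longer called without si*Airn* replicate 2. DESeq2 called 4 members higher, *Ccne2*, *Mcm2*, *Mcm4* and *Mcm6*, and *Rfc2* lower. These are 5 of 44 members (11.4%). Of the 18014 genes in that fit 9.54% were called, but 6636 of them had no adjusted p and could not be called. All 44 members had one, so the share of all genes to set beside 11.4% is above 9.54%. Upper-quartile scaling lost *Mcm5*, and a fit without the filter on low counts lost *Mcm3* and *Mcm5*.

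**Figure D1:**
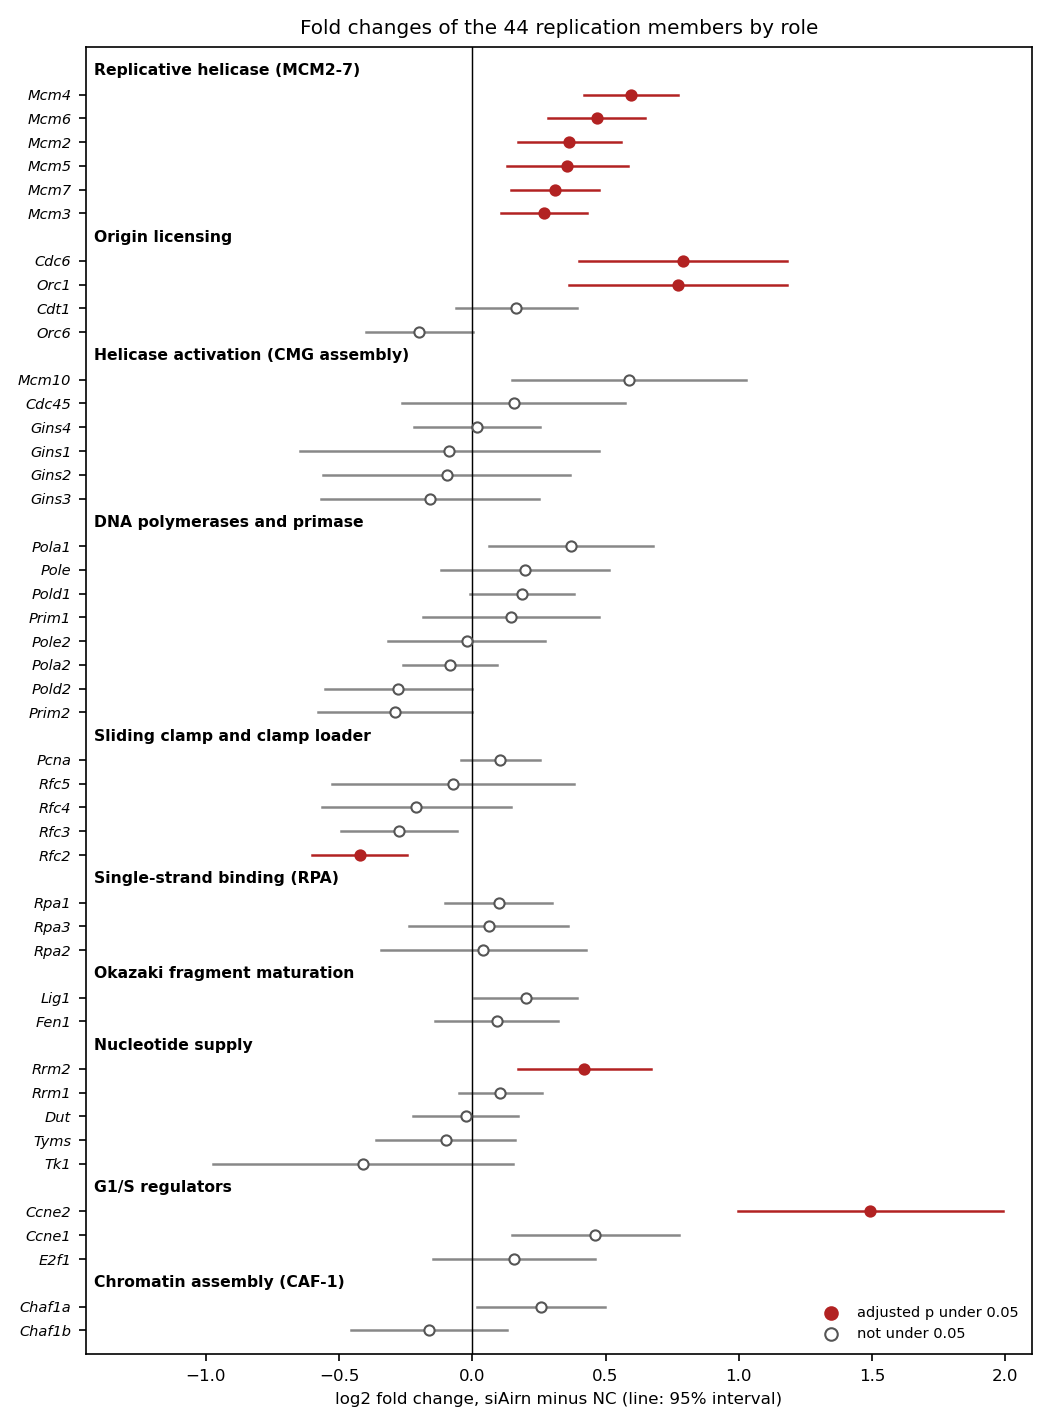
Log2 fold change (si*Airn* minus NC, horizontal axis) of each of the 44 members, grouped by role, with its 95% interval from edgeR's quasi-likelihood fit (line). Filled points have an adjusted p under 0.05 (edgeR). The 6 MCM2-7 genes lie between 0.27 and 0.60 and *Ccne2* lies at 1.49, whereas *Rfc2* lies at -0.42 and most polymerase, RPA and GINS intervals cover 0.

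MCM2-7 is the motor that unwinds the double helix, and its subunits work as a ring with each present once. Its 6 genes rose together. *Mcm4* was at 40.27 and 40.96 CPM in NC and at 58.91 and 63.83 CPM in si*Airn* (log2 fold change 0.60, SE (standard error) 0.07, edgeR adjusted p = 0.00751). *Mcm6* was at 49.37 and 48.48 CPM in NC and at 64.11 and 71.06 CPM in si*Airn* (log2 fold change 0.47, SE 0.08, edgeR adjusted p = 0.0129). The replicates of NC lay within a few percent of each other for both genes, and si*Airn* replicate 2 was the higher of its pair. *Mcm2* was at 59.18 and 61.85 CPM in NC and at 72.97 and 82.88 CPM in si*Airn* (log2 fold change 0.36, SE 0.08, edgeR adjusted p = 0.0282). *Mcm5* was at 34.61 and 35.87 CPM in NC and at 41.60 and 48.62 CPM in si*Airn* (log2 fold change 0.36, SE 0.10, edgeR adjusted p = 0.0472). Of the 6 genes, *Mcm5* lay nearest to the threshold, and its si*Airn* replicates were the furthest apart of this group. *Mcm7* was at 45.58 and 43.83 CPM in NC and at 56.04 and 54.72 CPM in si*Airn* (log2 fold change 0.31, SE 0.07, edgeR adjusted p = 0.0286). *Mcm3*, the most abundant of the 6 per transcript length, was at 91.86 and 96.79 CPM in NC and at 110.1 and 117.5 CPM in si*Airn* (log2 fold change 0.27, SE 0.07, edgeR adjusted p = 0.0383). For each of the 6 genes both si*Airn* values lay above both NC values, as for 30.9% of all genes tested. Summed over the hexamer, the genes made up 320.9 and 327.8 CPM in NC and 403.7 and 438.6 CPM in si*Airn*. The order of the levels per transcript length was *Mcm3* (37.7 FPKM, mean of the 4 libraries), *Mcm7* (22.0), *Mcm2* (21.3), *Mcm6* (20.4), *Mcm5* (14.8) and *Mcm4* (14.7). *Mcm4* had the lowest mean level of the 6 in NC (11.55 FPKM, against 12.72 for *Mcm5*) and the largest fold change. In si*Airn* its mean lay above that of *Mcm5* (17.93 against 16.77 FPKM).

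Origin licensing did not move as a block. *Cdc6*, the ATPase that joins the origin complex to load the helicase, was at 4.32 and 4.75 CPM in NC and at 8.13 and 7.58 CPM in si*Airn* (log2 fold change 0.79, SE 0.16, edgeR adjusted p = 0.0234). *Orc1*, the large subunit of the origin recognition complex, was at 4.32 and 3.87 CPM in NC and at 6.97 and 7.01 CPM in si*Airn* (log2 fold change 0.77, SE 0.17, edgeR adjusted p = 0.0282). Both are low transcripts, and the groups were apart for each. *Cdt1*, which brings MCM2-7 to the origin, was at 18.62 and 18.35 CPM in NC and at 20.08 and 21.37 CPM in si*Airn*, and did not pass (log2 fold change 0.17, edgeR adjusted p = 0.270). *Orc6*, the most abundant of the licensing genes per length at a mean of 18.6 FPKM, was at 29.47 and 31.18 CPM in NC and at 26.83 and 26.00 CPM in si*Airn*, with a log2 fold change of -0.20 (95% interval -0.40 to 0.00, edgeR adjusted p = 0.150). Its level was lower in both si*Airn* libraries than in both NC libraries, opposite to *Orc1*.

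Cyclin E drives the entry into S phase with Cdk2, and is encoded by a pair of genes. *Ccne2* had the largest fold change of the 44 members. It was at 2.86 and 3.37 CPM in NC and at 9.96 and 7.63 CPM in si*Airn* (log2 fold change 1.49, SE 0.21, 95% interval 1.00 to 1.99, edgeR adjusted p = 0.0092). Every si*Airn* value was more than 2 times every NC value. *Ccne1*, the more abundant of the pair at a mean of 7.11 FPKM against 2.30 for *Ccne2*, was at 10.50 and 11.39 CPM in NC and at 13.83 and 16.34 CPM in si*Airn*, and missed the threshold (log2 fold change 0.46, SE 0.13, edgeR adjusted p = 0.0562). *E2f1*, the transcription factor, was at 9.22 and 8.84 CPM in NC and at 9.85 and 10.29 CPM in si*Airn* (log2 fold change 0.16, edgeR adjusted p = 0.430). *Ccne1* was called by edgeR's likelihood-ratio test (adjusted p = 0.0231), by limma (0.0435 and 0.0425 with the larger and smaller pseudocount) and by edgeR with the GC and length correction (0.0349), and over its alternatives the adjusted p ranged from 0.000356 to 0.222. For all 3 regulators both si*Airn* values lay above both NC values, as for 30.9% of all genes tested.

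**Figure D2:**
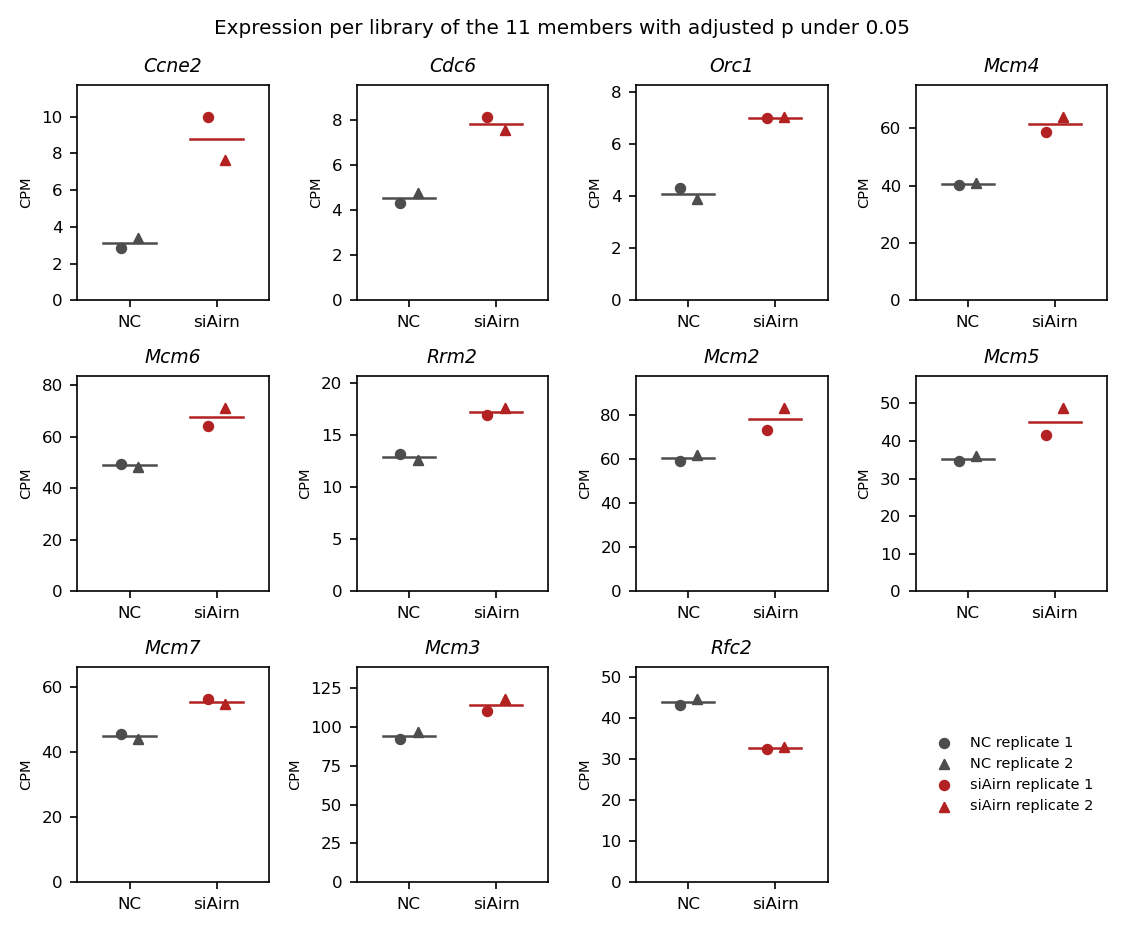
Expression in CPM (vertical axis, from 0) of the 11 members with an adjusted p under 0.05 in each NC and si*Airn* library, with the mean of each group as a line. In every panel the 2 groups are apart, and *Rfc2* is the only member of the 11 with lower values in si*Airn*.

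Further along the pathway, the genes that complete the helicase and synthesize DNA showed no common direction. Among the 6 helicase activation genes edgeR's quasi-likelihood test called none, with *Mcm10* at an unadjusted p of 0.0158. DESeq2 and limma called none. Both edgeR's likelihood-ratio test and edgeR with the replicate number as a block called *Mcm10*. *Mcm10*, which helps to start unwinding, was at 3.62 and 3.81 CPM in NC and at 5.48 and 5.71 CPM in si*Airn*, with a log2 fold change of 0.59 (edgeR adjusted p = 0.0711). Both of its si*Airn* values lay above both NC values. *Gins4*, the most abundant of these genes per length (mean 25.6 FPKM), was at 29.12 and 34.05 CPM in NC and at 31.48 and 32.51 CPM in si*Airn*, with a log2 fold change of 0.02 (95% interval -0.22 to 0.25, edgeR adjusted p = 0.922). *Cdc45* and the other GINS genes had log2 fold changes from -0.16 (*Gins3*) to 0.16 (*Cdc45*), with overlapping groups for all of them except *Gins3*.

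The 8 polymerase and primase genes summed to 164.2 and 163.3 CPM in NC and to 161.3 and 162.5 CPM in si*Airn*. None was called in the main edgeR fit at an adjusted p under 0.05, and none by DESeq2 or limma. In the main fit 3 of the 8 had an unadjusted p under 0.05, against 34.0% of all genes tested. With the replicate number as a block, edgeR called *Pola1* higher and *Pold2* lower. With the block and the GC and length correction, it called *Pold1* higher and *Prim2* lower. *Pola1*, the catalytic subunit of polymerase alpha, had a log2 fold change of 0.37 (edgeR adjusted p = 0.0943). *Pold2*, an accessory subunit of polymerase delta, had one of -0.28 (edgeR adjusted p = 0.145), and *Prim2*, the large primase subunit, one of -0.29 (edgeR adjusted p = 0.144). Subunits of the same enzyme lay on both sides of 0, with *Pola2* at -0.08 beside *Pola1*, *Prim1* at 0.14 beside *Prim2*, *Pold1* at 0.19 beside *Pold2*, and *Pole2* at -0.02 (on the other side of 0 in 6 of 14 alternatives) beside *Pole* at 0.20. *Pola2*, the most abundant of them per length (mean 17.8 FPKM), was at 43.07 and 41.62 CPM in NC and at 40.55 and 39.35 CPM in si*Airn* (95% interval of the log2 fold change -0.26 to 0.09, edgeR adjusted p = 0.463).

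Of the sliding clamp and its loader, 1 of 5 member genes was called. *Rfc2*, a small subunit of the clamp loader, was at 43.13 and 44.44 CPM in NC and at 32.42 and 32.90 CPM in si*Airn* (log2 fold change -0.42, SE 0.07, edgeR adjusted p = 0.0154). It is the member that fell. *Rfc3* was at 23.75 and 25.15 CPM in NC and at 20.41 and 20.01 CPM in si*Airn*, with a log2 fold change of -0.27 (edgeR adjusted p = 0.0815). *Rfc4* (log2 fold change -0.21, edgeR adjusted p = 0.364) also had both si*Airn* values below both NC values, and the groups overlapped for *Rfc5* (-0.07, edgeR adjusted p = 0.822). *Pcna*, the clamp and a readout of proliferation in the study, was the most abundant member per length, with a mean of 124.2 FPKM. It was at 135.6 and 142.5 CPM in NC and at 147.8 and 151.2 CPM in si*Airn*, with a log2 fold change of 0.10 (95% interval -0.04 to 0.25, edgeR adjusted p = 0.287). This interval lies below the log2 fold changes of all 10 higher members, the smallest being 0.27 for *Mcm3*, although the difference between *Pcna* and any of them was not tested. Both si*Airn* values of *Pcna* lay above both NC values, as for 30.9% of all genes tested. With the block and the GC and length correction, edgeR called *Pcna* higher (adjusted p = 0.0171), in a fit that called 31.4% of all genes.

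The remaining roles held a single call. *Rrm2*, the small subunit of ribonucleotide reductase, which makes the DNA precursors, was at 13.19 and 12.60 CPM in NC and at 16.93 and 17.58 CPM in si*Airn* (log2 fold change 0.42, SE 0.11, edgeR adjusted p = 0.0383). Corrected for GC content and length, its log2 fold change was 0.43 and its adjusted p from edgeR 0.0508. Its partner *Rrm1*, the large subunit and the most abundant of the nucleotide genes per length (mean 14.6 FPKM), was at 54.27 and 54.34 CPM in NC and at 59.25 and 57.55 CPM in si*Airn*, with a log2 fold change of 0.10 (95% interval -0.05 to 0.26, edgeR adjusted p = 0.306). Of the other nucleotide genes, the thymidine kinase gene *Tk1* had a log2 fold change of -0.41 at 2.60 to 4.20 CPM (edgeR adjusted p = 0.272), the thymidylate synthase gene *Tyms* one of -0.10 and the dUTPase gene *Dut* one of -0.02. The 3 RPA genes overlapped between groups, with no member at an unadjusted p under 0.05 by edgeR and none called by DESeq2 or limma. *Rpa1*, the large RPA subunit at a mean of 51.1 FPKM, was at 142.3 and 145.6 CPM in NC and at 142.3 and 166.2 CPM in si*Airn* (log2 fold change 0.10, edgeR adjusted p = 0.446). Only si*Airn* replicate 2 stood above the other libraries there. *Fen1*, the flap nuclease of Okazaki fragment maturation (mean 13.0 FPKM), was at 25.27 and 27.75 CPM in NC and at 26.83 and 29.68 CPM in si*Airn* (log2 fold change 0.09, edgeR adjusted p = 0.550), and the DNA ligase gene *Lig1* had a log2 fold change of 0.20 (edgeR adjusted p = 0.140). The chromatin assembly gene *Chaf1a* had one of 0.26 (edgeR adjusted p = 0.123). Its partner *Chaf1b*, the more abundant per length (mean 5.71 FPKM), was at 10.68 and 10.72 CPM in NC and at 9.40 and 9.72 CPM in si*Airn*, with a log2 fold change of -0.16 (edgeR adjusted p = 0.396).

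Per transcript length, the members spanned from 1.26 FPKM (*Mcm10*) to 124.2 FPKM (*Pcna*), with a median of 9.53 FPKM and 21 members at 10 FPKM or more. The members with the 3 largest fold changes, *Ccne2*, *Cdc6* and *Orc1*, were among the low ones, with means of 2.30, 2.79 and 1.73 FPKM. Replicates of a group usually lay close together, with a median ratio of the larger to the smaller CPM of 1.05 in NC and 1.07 in si*Airn*. The widest gap was that of *Gins2* in si*Airn* (1.48), and the ratio was over 1.2 for 3 members in NC and 6 in si*Airn*.

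**Figure D3:**
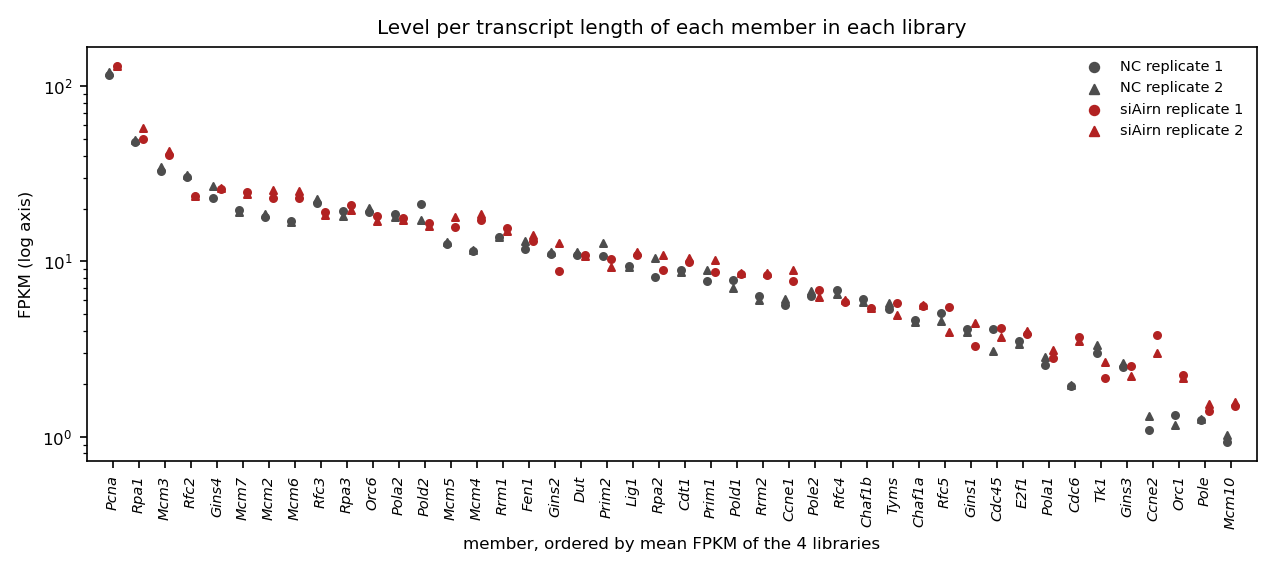
FPKM of each member in each library (vertical log axis), with members ordered by their mean over the 4 libraries. *Pcna* and *Rpa1* lead, and *Ccne2* shows the widest distance between NC and si*Airn* points.

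The promoters of the members were searched for E2F words, because the members include many genes known as E2F targets. RefSeq promoters (build GRCm38.p6, from 250 bases before to 50 bases after the start of transcription) matched 36 of the 44 members. *Ccne2*, *Mcm4*, *Rfc2*, *Gins1*, *Gins2*, *Gins4*, *Pole* and *Prim2* had no entry. The words TTTCGCGC, TTTGGCGC, TTTCCCGC and TTTGCCGC were read on both strands and may overlap each other. At least 1 of them stood in a promoter of 13 of the 36 members (36.1%), against 2.61% of the 27025 genes and 2.26% of the 32851 promoters of the table. Of the 8 called higher members with an entry, 6 held one (*Mcm3*, *Mcm5*, *Mcm6*, *Mcm7*, *Cdc6* and *Orc1*) and *Mcm2* and *Rrm2* did not. Of the other 28 members with an entry, 7 held one (*Cdt1*, *Gins3*, *Lig1*, *Pola1*, *Pold1*, *Pole2* and *Rfc3*). The word CCAAT, that of the factor NF-Y, was also read on both strands. It stood in promoters of 21 of the 36 members (58.3%), against 41.1% of all genes of the table. Of the 8 called higher members with an entry 7 held it, and of the other 28 members 14 did (50.0%). In *Mcm7* a CCAAT match overlaps an E2F word. These matches are descriptions of the sequence and not shown to be sites.

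The promoters of 4 called higher members with E2F words are printed with that of *Rfc3*, which holds such words and whose log2 fold change was -0.27, so that the layouts can be compared. Coordinates are those of the RefSeq table, each sequence runs 5′ to 3′ on the strand of its gene, capitals mark the E2F words, and the last 50 bases follow the start that RefSeq gives. For 34 of the 41 promoters of members, bases after this start were found in a GENCODE M21 transcript of the gene on the same strand. *Mcm5* and *Mcm6* are among the 7 for which they were not, so distances to their start rest on RefSeq alone. *Mcm5* (chr8:75109259-75109558, plus strand) holds 2 overlapping words on opposite strands, which begin 153 and 149 bases before the start. *Mcm6* (chr1:128359656-128359955, minus strand) holds 3 words, 2 of them overlapping, which begin 110, 106 and 47 bases before the start. *Orc1* (chr4:108579204-108579503, plus strand) holds 1 word 27 bases before the start, and *Cdc6* (chr11:98907901-98908200, plus strand) 1 word 138 bases before it. *Rfc3* (chr5:151651159-151651458, minus strand) holds 2 words, 1 beginning 10 bases before the start and 1 at the start itself.
Mcm5: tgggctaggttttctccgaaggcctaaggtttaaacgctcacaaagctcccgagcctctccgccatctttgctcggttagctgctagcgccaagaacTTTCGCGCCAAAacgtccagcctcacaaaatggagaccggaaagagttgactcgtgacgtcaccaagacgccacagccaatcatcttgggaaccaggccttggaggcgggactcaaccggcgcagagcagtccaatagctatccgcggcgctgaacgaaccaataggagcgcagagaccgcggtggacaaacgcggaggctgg
Mcm6: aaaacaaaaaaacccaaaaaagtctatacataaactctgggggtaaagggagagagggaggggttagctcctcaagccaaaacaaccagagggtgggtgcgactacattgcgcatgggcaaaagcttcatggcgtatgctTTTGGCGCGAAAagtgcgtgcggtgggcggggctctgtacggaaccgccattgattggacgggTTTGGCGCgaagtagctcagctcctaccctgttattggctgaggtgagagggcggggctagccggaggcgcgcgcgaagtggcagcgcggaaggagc
Orc1: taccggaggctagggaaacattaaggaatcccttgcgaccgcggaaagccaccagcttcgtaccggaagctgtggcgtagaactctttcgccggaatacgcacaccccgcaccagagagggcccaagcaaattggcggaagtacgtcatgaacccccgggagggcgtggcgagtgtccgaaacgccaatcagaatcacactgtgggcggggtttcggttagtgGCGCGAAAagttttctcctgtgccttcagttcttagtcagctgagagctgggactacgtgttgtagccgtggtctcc
Cdc6: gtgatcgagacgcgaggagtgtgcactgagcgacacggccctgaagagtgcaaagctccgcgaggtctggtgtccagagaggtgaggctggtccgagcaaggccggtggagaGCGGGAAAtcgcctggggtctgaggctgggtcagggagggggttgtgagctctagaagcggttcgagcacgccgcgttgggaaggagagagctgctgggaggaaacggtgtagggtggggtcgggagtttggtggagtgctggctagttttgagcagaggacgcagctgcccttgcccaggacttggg
Rfc3: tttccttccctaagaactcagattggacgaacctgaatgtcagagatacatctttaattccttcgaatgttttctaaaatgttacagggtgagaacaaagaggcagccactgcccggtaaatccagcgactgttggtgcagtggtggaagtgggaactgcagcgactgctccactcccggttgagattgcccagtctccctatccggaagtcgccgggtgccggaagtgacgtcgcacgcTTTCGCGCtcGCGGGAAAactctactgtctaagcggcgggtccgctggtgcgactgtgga

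Of 38 further origin and fork genes tested, 2 rose and 2 fell at an adjusted p under 0.05 by edgeR. This is 10.5%, below the 16.8% of all genes called. *Rfc1*, the large subunit of the same clamp loader as *Rfc2*, rose with a log2 fold change of 0.42 (edgeR adjusted p = 0.0202), from 51.06 and 45.33 CPM in NC to 65.88 and 62.81 CPM in si*Airn*. Corrected for GC content and length, *Rfc1* was at 0.31 and not called (edgeR adjusted p = 0.0548), while *Rfc2* stayed called. The histone chaperone gene *Nasp* rose by 0.33 (edgeR adjusted p = 0.0281, but 0.104 with that correction and 0.0877 by DESeq2), the fork protection gene *Timeless* fell by 0.67 on the log2 scale (edgeR adjusted p = 0.00855) and *Supt16*, of the histone chaperone FACT, fell by 0.45 (edgeR adjusted p = 0.0127). *Timeless* and *Supt16* were lower in both si*Airn* libraries than in both NC libraries, at 20.41 and 18.77 against 31.63 and 30.79 CPM and at 86.24 and 80.73 against 118.3 and 109.1 CPM.

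Of 15 activators of the G1/S transition, 3 rose and 2 fell (33.3% called, against 16.8% of all genes tested). The D-type cyclin gene *Ccnd2* rose with a log2 fold change of 0.46 (edgeR adjusted p = 0.0112), its kinase partner *Cdk6* with 0.43 (edgeR adjusted p = 0.0141) and *Tfdp1*, the dimerization partner of E2F, with 0.35 (edgeR adjusted p = 0.022). *Ccnd3* fell by 0.32 on the log2 scale (edgeR adjusted p = 0.0203) and *Cdk4* by 0.25 (edgeR adjusted p = 0.0405). Corrected for GC content and length, *Cdk6* was at 0.12 (edgeR adjusted p = 0.340), *Cdk4* at -0.11 (0.302) and *Ccnd3* at -0.23 (0.0572), so that these 3 were no longer called. Limma did not call *Cdk4* either (0.0896 and 0.0899). With the GC and length correction *Ccnd2* stayed called at a smaller log2 fold change of 0.28 (edgeR adjusted p = 0.0457). Of 17 inhibitors, none rose and 2 fell (11.8% called, below the 16.8% of all genes tested). They were *Cdkn1c* (p57) with a log2 fold change of -0.51 (edgeR adjusted p = 0.023) and the repressor E2F gene *E2f4* with -0.32 (edgeR adjusted p = 0.0182). Neither was called after that correction (edgeR adjusted p = 0.127 and 0.144), and DESeq2 did not call *Cdkn1c* (0.0565). Among further genes of nucleotide supply, *Cad*, of pyrimidine synthesis, fell by 0.39 on the log2 scale (edgeR adjusted p = 0.046), from 73.01 and 59.48 CPM in NC to 49.57 and 51.50 CPM in si*Airn*, but was not called by limma (0.107 and 0.105) or without the filter on low counts (0.0518). Without either NC replicate, edgeR called none of the genes of these 4 lists at an adjusted p under 0.05, as for the members.

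The genes of mitosis were not called. Of 25, edgeR called 0 at an adjusted p under 0.05, with 4 at an unadjusted p under 0.05, all higher in si*Airn* (*Tpx2*, *Bub1*, *Mki67* and *Prc1*), and DESeq2 and limma called 0. These 4 are 16.0% of the list, below the 34.0% of all genes tested at that unadjusted p. The genes named from this list and *Ccna2* were chosen after their values were seen. *Mki67*, which encodes the proliferation marker Ki67, was at 6.77 and 5.36 CPM in NC and at 8.35 and 7.92 CPM in si*Airn* (log2 fold change 0.42, edgeR adjusted p = 0.133). *Top2a* had a log2 fold change of 0.31 (edgeR adjusted p = 0.162), and the S and G2 cyclin gene *Ccna2* one of -0.03 at 7.08 to 7.57 CPM (edgeR adjusted p = 0.900). The edgeR likelihood-ratio test called *Tpx2* and *Prc1*. Over the list the median log2 fold change was 0.05.

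Markers of several cell types differed between the groups. All 10 LSEC markers were lower in si*Airn*, 9 of them called, and their summed level was 1190 and 1226 FPKM in NC against 810 and 736 in si*Airn*. Of 10 pan-endothelial markers 7 fell, with sums of 4000 and 3773 FPKM (NC) against 2979 and 2548 (si*Airn*), and of 11 macrophage markers tested 7 fell, with sums of 199 and 252 against 160 and 131. Of 12 stellate cell and fibroblast markers 4 rose, with sums of 477 and 573 FPKM (NC) against 608 and 770 (si*Airn*). Of 8 hepatocyte markers tested 1 rose, with sums of 304 and 392 against 445 and 570. Most of this hepatocyte sum is *Alb* (252.8 and 323.5 against 370.7 and 467.7 FPKM), which was not called (edgeR adjusted p = 0.0598). Of all genes tested, 8.27% were called higher and 8.56% lower. *Des* (stellate cells) was at 87.95 and 109.6 CPM in NC and at 88.57 and 130.4 in si*Airn*, *Alb* (hepatocytes) at 496.6 and 637.6 against 704.7 and 900.2, *Adgre1* (macrophages) at 5.60 and 6.08 against 3.76 and 2.83, and *Cd3e* (T cells) at 1.34 and 1.27 against 2.21 and 2.94 CPM. Of the 9 lymphocyte markers 2 lay higher and 3 lower in both si*Airn* libraries than in both NC libraries, against 30.9% and 31.9% of all genes tested. The 3 lower include *Cd3d* (1 and 1 counts in NC, 0 and 0 in si*Airn*) and *Ms4a1* (4 and 6 against 4 and 2), both too low for a test. Of the 4 tested, edgeR's quasi-likelihood test and DESeq2 called 0, with 2 at an unadjusted p under 0.05 by edgeR. The likelihood-ratio test of edgeR called 2 and limma 1. The lymphocyte markers summed to 3.69 and 3.31 FPKM (NC) against 5.22 and 5.40, and the cholangiocyte markers to 23.4 and 23.7 against 26.5 and 25.5. The latter sum follows *Krt19* (11.64 and 13.36 against 15.37 and 17.08 FPKM), and the other 4 of the 5 cholangiocyte markers had log2 fold changes below 0, with a list median of -0.20. None of *Stab2*, *Cdh5*, *Adgre1*, *Des*, *Alb* and *Cd3e* was at 0 in any library, while 3 other listed markers had 0 counts in at least 1 library (*Tat*, *Timd4* and *Cd3d*). These shifts stand beside the higher replication genes, and their part in them was not tested.

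Counts of some members may hold reads of other genes, since the use of strand in counting is not given, and 7 members (*Ccne2*, *Dut*, *Gins2*, *Pcna*, *Pold1*, *Rfc5* and *Tyms*) have counts that are not whole. In GENCODE M21, opposite-strand exons of neighbouring genes cover over 10% of the exonic bases of 8 members, among them *Fen1* (84.2%, *Gm10143* and *Tmem258*), *Gins2* (67.3%, *Gse1*) and *Chaf1a* (52.5%, *Ubxn6*), whose values are therefore uncertain. Of the called members, *Ccne2* has 17.4% under *Ints8*, *Rfc2* 15.1% under *Lat2* and *Orc1* 10.8% under *Gm12743*. *Ints8* had a log2 fold change of 0.20 (edgeR adjusted p = 0.126) and *Lat2* was at 2.03 to 2.98 CPM. *Mcm7* shares 34.2% of its 50-base windows with *Gm5487*, *Ap4m1* and *Cops6*, of which *Ap4m1* and *Cops6* had log2 fold changes of 0.10 and -0.11, and *Pcna* shares 31.8% with its pseudogene *Pcna-ps2*.

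**Figure D4:**
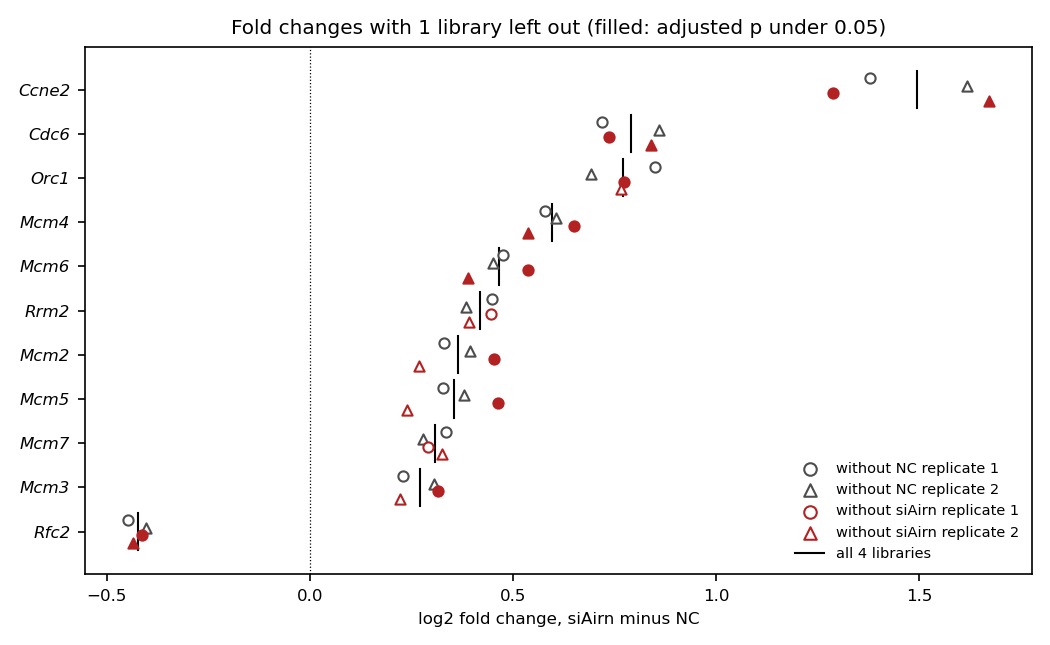
Log2 fold change (horizontal axis) of the 11 called members with each library left out in turn, by edgeR's quasi-likelihood test. Filled symbols have an adjusted p under 0.05, and the black line is the value from all 4 libraries. All values stay on their side of 0, which leaving out a library could hardly change, since the groups do not overlap for these genes. Every symbol for a left-out NC library is open, and some symbols for a left-out si*Airn* library are open too.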

How the data were processed

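RNA-seq (single-end reads of 50 bases) was analysed in 2 NC and 2 si*Airn* libraries, grouped by their labels. The authors deposited an estimated count per gene and library, not normalized, of which 76.5% to 76.8% are whole, and a second value that was taken for FPKM from the authors, since it tracks count, transcript length and library total. The submitters' processing notes list BWA, Bowtie2, RSEM and hg19 with no role. The roles of the aligners, the annotation and the use of strand are not given in the sources used here, and hg19 is a human build whereas the gene identifiers are those of mouse. Group means deposited by the authors were not used.

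The members, their roles and the other gene lists were chosen with earlier results of these data known. Rounded counts were fitted with edgeR 4.0.16 under R 4.3.3 (TMM factors 0.985 to 1.017, filterByExpr, glmQLFit and glmQLFTest without covariates), with Benjamini-Hochberg adjustment over the 13628 genes tested. The common biological coefficient of variation was 0.0754. Standard errors are those implied by the F statistic. An exact permutation test of 2 libraries against 2 cannot reach the threshold for any gene, so the spread was estimated over all genes. For its statistics in general the paper names Student's t test and analysis of variance. It does not state which test gave the p-values of its RNA-seq threshold, and edgeR's unadjusted p was used. FPKM served to compare levels between genes, for the sums of the cell type markers, *Krt19* and *Alb*, and as the input to limma. Library totals set the counting error, and the lowest member had 245 counts in all and at least 47 in each library. The calculations were tested on simulated data. Alternatives were upper-quartile scaling, DESeq2 1.42.0, no filter, at least 10 counts in every library, the likelihood-ratio test, a replicate block, a correction for GC content and length (splines with 5 degrees of freedom), limma 3.58.1 on log2(FPKM + 1) and log2(FPKM + 0.1) for genes with a mean of at least 1 FPKM, and each library left out. Values in each library are given for every called member, *Pcna* and the most abundant member of each role. Of each pathway list, called genes are named, at most 5, apart from a result that is not reported here.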

Additional observations from a re-analysis of the deposited data

How the results depend on the processing

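The count of higher members was 10 and of lower members 1 in the analysis reported. Leaving out each library gave 0 to 9 higher and 0 to 1 lower members. Both were 0 without either NC replicate, where the lone NC library is assumed to vary like the si*Airn* libraries. DESeq2 gave 4 higher members and an adjusted p under 0.1 gave 2 lower ones. A fold change over 2 left 1 member past the study threshold. The median log2 fold change of the members ranged from 0.091 to 0.17 with each library left out. The GC and length correction kept 9 of the 10 higher members (*Rrm2* was lost and *Ccne1* gained) while the number of genes called over the whole table went from 2294 to 1066. For the 20 members with full values, 226 of 280 values, and for the other pathway genes 127 of 182, kept their direction and side of the threshold. Among these members the direction turned for *Gins4* (-0.093 without NC replicate 1 and -0.0061 without si*Airn* replicate 2, 0.13 without NC replicate 2, and at most 0.16 over all alternatives), *Rpa1* (-0.016 without si*Airn* replicate 2, up to 0.21 without si*Airn* replicate 1) and *Rrm1* (-0.077 with the GC and length correction, with or without the block), none of which was called. Over all 44 members, 23 of 616 values turned, in 11 members (also *Cdc45*, *Gins1*, *Gins2*, *Pole2*, *Rfc5*, *Rpa2*, *Rpa3* and *Dut*), and 0 of them was called in the turned direction. The cause of these moves was not tested, apart from the smaller number of libraries where one was left out.

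For the pathway lists, DESeq2 called 1 inhibitor of G1/S, the analysis without a filter 1 nucleotide gene, and limma 1 nucleotide gene with either pseudocount. The likelihood-ratio test called 8 origin and fork genes, 5 nucleotide genes and 2 mitosis genes, and 23.0% of all genes tested. The GC and length correction called 2 origin and fork genes, 2 activators and 1 inhibitor. With each library left out, the counts ranged from 0 to 4 for origin and fork genes, 0 to 5 for activators, 0 to 3 for inhibitors, 0 to 3 for nucleotide genes and 0 to 1 for mitosis.

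The replicate numbers are shared by the groups, but nothing in the labels ties them to a common animal or day, so the main fit did not pair the libraries. The deviations of same-numbered libraries correlated at r = 0.27 across 13628 genes. With 2 pairs this value does not settle whether the libraries were paired, and a block was fitted as an alternative. With the replicate block, 13 members were higher and 3 lower (16 of 44), against 35.5% of all genes tested. Of the lists, 9 origin and fork genes, 8 activators, 7 inhibitors, 9 nucleotide genes and 2 mitosis genes were called. All genes called rose from 2294 to 4841. With the block and the GC and length correction, 16 members were higher and 3 lower (19 of 44), against 31.4% of all genes in that fit. The added higher members were *Ccne1*, *Cdt1*, *Fen1*, *Lig1*, *Pcna* and *Pold1*. Of the lists, 9 origin and fork genes, 7 inhibitors, 11 nucleotide genes and 2 mitosis genes were called.

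The 95% interval was over 0.8 wide on the log2 scale for 9 members at 2.60 to 11.65 CPM, *Ccne2* and *Orc1* among them, and what depth and replicate spread each add to this width was not tested.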
